A study of Rattus norvegicus with 10 samples.

Results

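Most distal acetylated regions of rat chondrosarcoma cells held no called peak of SOX9 or SOX6, and these SOX-free regions were narrower and of lower score than those that held a SOX peak. The regions were chosen by measured overlaps and widths of called peaks. A region was taken from the list of H3K27ac peaks if it was narrower than 5000 bp, shared at least 1 bp with an H3K4me1 peak and shared none with an H3K4me3, SOX9 or SOX6 peak. Of the 50834 H3K27ac peaks, 17567 met this rule, which is 34.6% of the list and 19.2 Mb of its 82.3 Mb. Width, H3K4me1 and the absence of H3K4me3 alone left 24591 active distal regions. SOX-free regions made up 71.4% of these (95% Wilson interval 70.9% to 71.998%), and the other 7024 held a SOX9 peak, a SOX6 peak or both. Over all H3K27ac peaks 69.8% held no SOX peak, so the share among distal regions was close to that of the whole list, and the rule itself set the absence of SOX peaks.

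Acetylation of histone H3 at lysine 27 is found at active promoters and enhancers. Enhancers typically carry monomethylated lysine 4 (H3K4me1) with little of the trimethylated form (H3K4me3), which is concentrated at promoters. Chondrocyte differentiation depends on the transcription factor SOX9. SOX6, another member of the SOX family, works with SOX9 at many cartilage enhancers. H3K9me3 is a mark of heterochromatin and of silenced repeats and is usually scarce at active enhancers. A region with H3K27ac and H3K4me1 and without H3K4me3 is therefore often read as an active enhancer, though these lists hold no measurement of enhancer activity.

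The cells were RCS cells, a rat chondrosarcoma line, and the labels give no treatment or genotype. Chromatin immunoprecipitation with sequencing was done with 1 library per antibody, for the 4 histone marks H3K4me1, H3K4me3, H3K9me3 and H3K27ac and for both SOX factors, beside 4 inputs made without antibody. The inputs held from 19681958 to 70584605 aligned reads, while no depth was used for the immunoprecipitated libraries. No value has a replicate error. All intervals below cover counting error only, and they are narrow because neighbouring regions were counted as independent. No p-value is given, since regions of 1 library are not replicates. "No SOX peak" means that no peak was called in these lists, whose scores start at 50, and weaker binding was not measured. Coordinates are on rn5 and count from 1.

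The limit of 5000 bp divided regions of overlapping scores. The 3 widest SOX-free regions below the limit measured 4952, 4946 and 4924 bp, with H3K27ac scores of 1800.0, 2597 and 3100. The 3 narrowest regions left out for width alone measured 5025, 5031 and 5035 bp, with scores of 1632, 2709 and 3100. Only 60 SOX-free regions were left out for width. The overlap with H3K4me1 was as small as 1 bp, and in 173 of the SOX-free regions it was under 100 bp.

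The SOX-free regions had a median width of 861 bp (95% interval of the median 852 to 871 bp, quartiles 629 and 1330.5 bp). Regions with a SOX peak had a median of 1719.5 bp (1692 to 1751 bp), and all H3K27ac peaks a median of 1212 bp. Among regions with SOX the median was 1331 bp for SOX6 alone, 1590.0 bp for SOX9 alone and 2039 bp for both factors. The SOX-free median was the lowest of the 4 classes, and its interval met none of the others. A width below 800 bp was found in 44.4% of SOX-free and 13.6% of SOX-holding regions, and a width of 2000 bp or more in 9.24% and 39.5%. The rule asks for no SOX peak within the interval, so width and class are not independent, and the share of this order that comes from width alone was not tested.

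Scores showed the same order. The score is the authors' own value for each peak, its scale is not stated in the labels or the lists, and it was compared only within the H3K27ac list. The median was 138 in SOX-free regions (95% interval 135 to 140.4, quartiles 73.5 and 329). It was 321 with SOX6 alone, 588 with SOX9 alone and 1453 with both factors, against 332 over all H3K27ac peaks. Many peaks of the list share the value 3100, and 18.9% of all H3K27ac peaks reach it. Only 1.43% of SOX-free regions (252 regions, 1.27% to 1.62%) did so, compared with 19.5% of SOX-holding regions, a difference of -18.1 percentage points (-19.0 to -17.1). The SOX-free regions were thus scarce among the top scores. The pooled share of SOX-holding regions was close to that of the whole list, but the shares by factor were not. They were 5.32% with SOX6 alone and 13.1% with SOX9 alone, below the list, and 31.2% with both factors, above it. The list also holds peaks with H3K4me3 and peaks of 5000 bp or more, so its share is not that of distal regions alone.

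**Figure D1:**
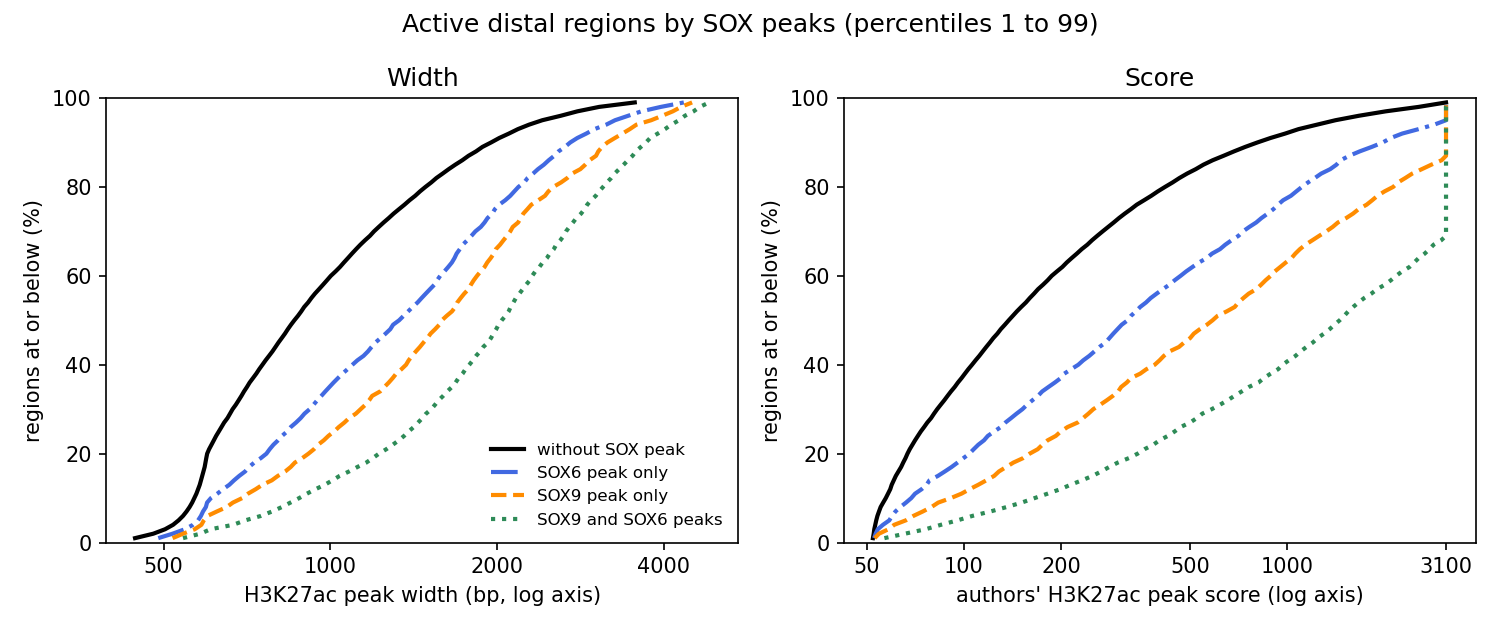
Cumulative percentage of active distal regions (vertical axis) by H3K27ac peak width in bp (left) and by the authors' H3K27ac score (right), both on log axes, for regions without a SOX peak and with SOX6 alone, SOX9 alone or both. The curve without SOX peaks lies to the left in both panels, with medians of 861 bp and 138, and the curve for both factors lies farthest right, with medians of 2039 bp and 1453.

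At a like width from 500 bp up, regions without SOX peaks were more frequent at the lowest than at the highest scores. At a like score the relation to width was less regular. Among regions of 500 to 800 bp, 90.8% (90.0% to 91.6%) of those scoring below 75 held no SOX peak, and 68.3% (56.0% to 78.4%) of those scoring 1000 or more. Among regions of 2000 to 5000 bp the share was 74.1% (69.2% to 78.4%) at scores of 250 to 500 and 26.6% (25.1% to 28.2%) at 1000 or more. The fall with score was therefore present at a like width in both classes. At scores of 1000 or more the share went from 68.3% in the 500 to 800 bp class through 51.3% and 38.7% to 26.6% in the widest class. At scores of 500 to 1000 the shares in the classes of 1200 to 2000 and 2000 to 5000 bp were 57.1% and 57.2%, and at 250 to 500 they were 68.8% and 74.1%. In the narrowest class, below 500 bp, 90.6% of 554 regions held no SOX peak, and the shares in its score classes had overlapping intervals. The absence of SOX peaks was not limited to weak regions, since 831 regions of 2000 bp or more with a score of 1000 or more held none.

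**Figure D2:**
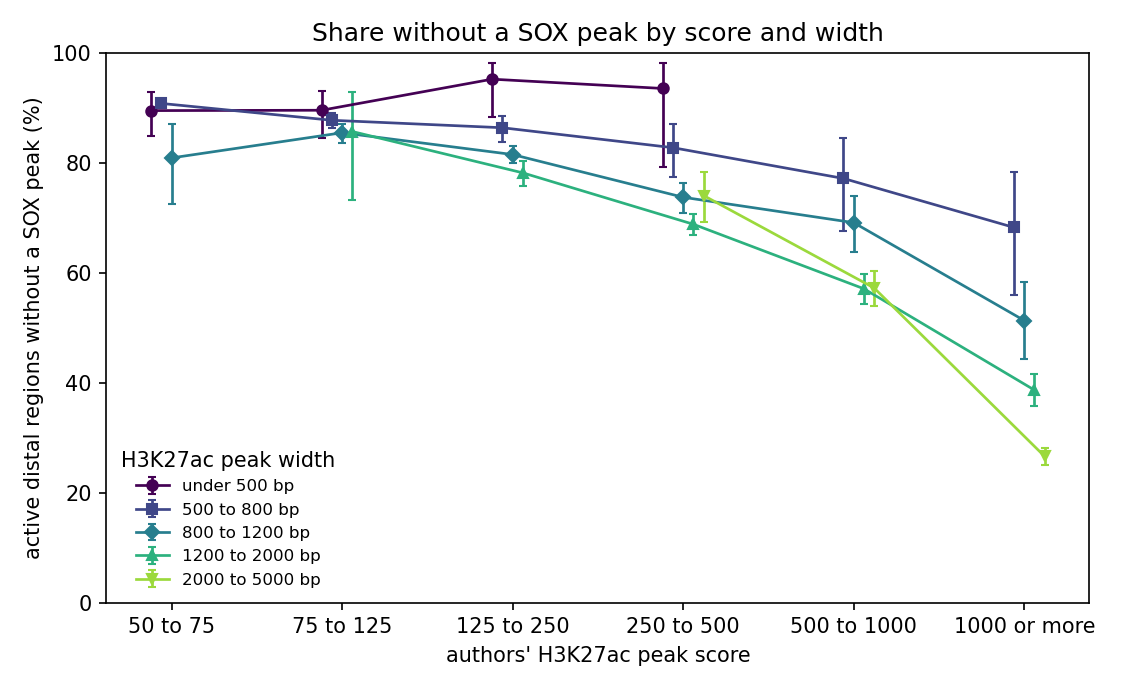
Percentage of active distal regions without a SOX peak (vertical axis) in classes of the authors' H3K27ac score (horizontal axis), with 1 line per class of H3K27ac peak width, Wilson 95% intervals as bars, and classes of at least 20 regions. The share falls toward high scores in the width classes from 500 bp up, down to 26.6% for regions of 2000 to 5000 bp that score 1000 or more.

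H3K4me1, which the rule asked for only as an overlap, was narrower and lower in score at SOX-free regions. The widest H3K4me1 peak met had a median width of 1319 bp (1301 to 1337 bp) at SOX-free regions and 1883 bp (1846 to 1913 bp) at SOX-holding regions. The highest H3K4me1 score met had a median of 313 (305 to 320.2) and 671 (651 to 689). At a like H3K27ac width these differences were smaller and kept their direction in all 5 width classes. In the class from 800 to 1200 bp, the H3K4me1 medians were 1178 and 1295.5 bp, and the scores 286 and 422.

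The H3K4me1 peak was wider than the H3K27ac peak in 70.6% (69.9% to 71.3%) of SOX-free and 57.1% (56.0% to 58.3%) of SOX-holding regions. The share with SOX6 alone, 71.4% (69.4% to 73.2%), was like that of SOX-free regions. It was 57.7% with SOX9 alone and 47.8% with both factors. At a like H3K27ac width the SOX-free share was below that of all SOX-holding regions in the 4 classes below 2000 bp. At 500 to 800 bp the shares were 84.5% and 88.3%, and the intervals overlapped below 500 bp and at 1200 to 2000 bp. In the class from 2000 to 5000 bp alone the SOX-free share was higher, at 43.6% and 38.7%. At the median, 98.9% of a SOX-free region and 98.2% of a SOX-holding region lay under H3K4me1 peaks, with lower quartiles of 84.9% and 88.4%. Coverage was complete in 45.0% of SOX-free and 37.7% of SOX-holding regions. With SOX6 alone it was complete in 51.2%, above the SOX-free share, with SOX9 alone in 36.8% and with both factors in 29.4%. SOX-free regions met 2 or more H3K4me1 peaks in 4.06% of cases, and SOX-holding regions in 12.3%, against 16.4% of all H3K27ac peaks. With SOX6 alone this share was 6.32%, with SOX9 alone 9.99% and with both factors 17.1%, in the order of their median widths. It was not compared at a like width. The H3K4me1 peak of a SOX-free region extended to a SOX peak outside the region in 1125 cases, or 6.40% (6.05% to 6.78%).

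SOX-free regions lay close to other acetylated intervals. The median gap to the nearest other H3K27ac peak was 799 bp (757 to 834 bp), compared with 1460.5 bp (1333 to 1681 bp) for SOX-holding regions and 1881 bp over the whole list. With both factors it was 933 bp (826 to 1083 bp), an interval that overlapped that of SOX-free regions. It was 1933 bp with SOX6 alone and 2975 bp with SOX9 alone. Another H3K27ac peak lay within 10 kb of 81.6% (81.0% to 82.1%) of SOX-free and 72.5% (71.4% to 73.5%) of SOX-holding regions, against 71.5% of all H3K27ac peaks. The difference of 9.09 percentage points (7.91 to 10.3) was larger among regions of 500 to 800 bp, at 81.2% and 64.1%. In the class below 500 bp the shares were 77.5% and 80.8% with overlapping intervals, over only 52 SOX-holding regions. The order of the gaps turned when regions within 1 kb of a SOX peak were moved to the SOX-holding class, with medians of 1251 bp and 524 bp. Joining H3K27ac peaks within 1 kb before the rule, which removes the shortest gaps, gave medians of 6273 bp and 9199.5 bp in the same order as at first.

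The neighbour was most often another region of the same kind. For 43.1% of SOX-free regions the nearest H3K27ac peak was itself a SOX-free region, for 27.5% it was a peak with H3K4me3 and for 17.4% a SOX-holding distal region. SOX-holding regions had a SOX-free region as nearest neighbour as often, in 43.2% of cases. In the H3K27ac list SOX-free regions make up 34.6%, peaks with H3K4me3 38.7% and SOX-holding distal regions 13.8%, so neighbours with H3K4me3 were fewer than their share of the list. Among neighbours no more than 1 kb away, a peak with H3K4me3 was found beside 19.5% (18.7% to 20.3%) of SOX-free and 8.42% (7.51% to 9.43%) of SOX-holding regions, both below the 38.7% of the list.

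After joining of H3K27ac peaks separated by up to 10 kb, the SOX-free regions fell into 9610 acetylated stretches. Of the SOX-free regions, 60.6% lay in the 4343 stretches that held a SOX peak somewhere, either in another H3K27ac peak or between peaks. The other 6923 regions, 39.4%, lay in 5267 stretches without any SOX peak. Stretches with a SOX peak had a median length of 12945 bp and 63.9% of them held an H3K4me3-marked peak. Those without had a median length of 1408 bp, and 17.2% held one. The part of length in these shares was not tested. The 60.6% counts regions, so stretches with many SOX-free regions weigh more in it. Counted as stretches, 5267 of these 9610 held no SOX peak. Of all 24078 stretches of the H3K27ac list, 12723 held none.

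Absence of a SOX peak did not mean distance from one. The median gap from a SOX-free region to the nearest SOX9 or SOX6 peak was 7967 bp (7688 to 8233 bp, quartiles 2190 and 25266 bp). Within 1 kb of a SOX peak lay 14.0% (13.5% to 14.5%), within 10 kb 55.2% (54.5% to 56.0%) and within 100 kb 94.2% (93.8% to 94.5%). Over all H3K27ac peaks the median gap to the nearest SOX peak outside the interval was 12711.5 bp, and 44.9% had one within 10 kb. From SOX-holding regions to the next SOX peak outside them, the median gap was 14325 bp (13695 to 14921 bp), and 41.7% had one within 10 kb. The SOX-free median gap was the lower in each of the 5 width classes and 6 score classes and on all 21 chromosomes. The gap of SOX-holding regions skips the SOX peaks that they hold, so the gaps of the classes are unlike measures. The part of this in their order was not tested. With the exclusion widened to 1 kb the order turned, to 10869 bp and 6960.0 bp, as that setting moves the closest regions to the other class. With neighbouring H3K27ac peaks joined first, the medians were 15524 bp and 18915.5 bp.

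**Figure D3:**
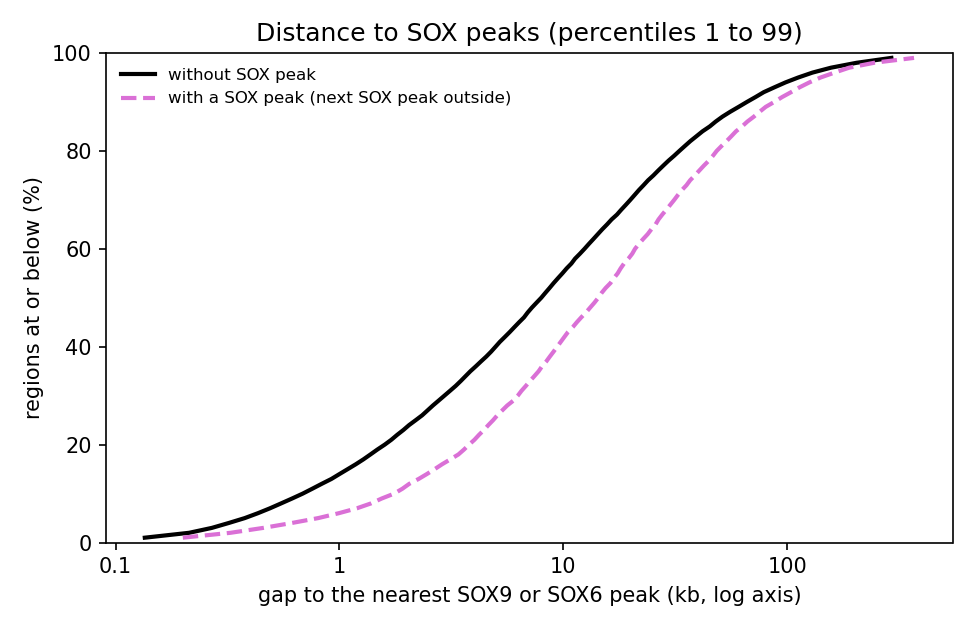
Cumulative percentage of regions (vertical axis) by the gap in kb to the nearest SOX9 or SOX6 peak (horizontal axis, log scale). The solid line shows regions without a SOX peak and the dashed line regions with a SOX peak, measured to the next SOX peak outside them. The medians are 7967 bp and 14325 bp.

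The closest SOX peaks lay at the edge of the acetylated interval. The 3 shortest gaps were 2, 2 and 3 bp. On chromosome 2 a region from 46560107 to 46560781 ended beside a SOX6 peak, and a region from 100203320 to 100203882 ended beside a SOX9 peak. On chromosome 5 the region from 62112453 to 62113448 ended beside a site of both factors that itself met no H3K27ac peak. All 3 shared an H3K4me1 peak with the SOX site. Among the 2460 regions within 1 kb of a SOX peak, 25.8% shared an H3K4me1 peak with SOX, compared with 6.77% at 1 to 10 kb.

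Overlapping SOX9 and SOX6 peaks were joined, for the gaps above as for this comparison, which gave 25523 SOX sites. A SOX peak outside a SOX-holding region was therefore skipped if it was joined to one inside. Of the sites, 9565 were the nearest site of at least 1 SOX-free region. Both factors were present at the nearest site of 44.4% (43.7% to 45.1%) of the SOX-free regions, compared with 32.4% of all SOX sites. The nearest site lay in H3K27ac without H3K4me3 in 48.9% of cases and in H3K4me3 in 35.7%, against 35.9% and 37.9% of all sites. It lay in none of the 3 active marks in 8.29%, against 15.98%. Several regions can share a nearest site, so these shares give more weight to sites with many regions around them. For regions within 1 kb of a site, the site lay in H3K27ac without H3K4me3 in 63.8% (61.9% to 65.7%) of cases.

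Score fell slightly with distance from SOX. The median H3K27ac score was 177 up to 1 kb from a SOX peak, 137 at 1 to 10 kb, 130.4 at 10 to 100 kb and 123 beyond 100 kb. The quartiles overlapped widely, from 85.1 to 454 in the closest and from 71.8 to 256 in the farthest class. Widths had medians between 810.0 and 891 bp in the 4 classes, with no steady order. The median H3K4me1 score was highest at 1 to 10 kb, at 359.8, and lowest beyond 100 kb, at 184.

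SOX-free regions also lay closer to H3K4me3 peaks, which both classes lack by the rule. The median gap was 15350 bp (14878 to 15889 bp), compared with 24707.5 bp (23755 to 25789 bp) for SOX-holding regions. An H3K4me3 peak lay within 1 kb of 8.09% (7.70% to 8.51%) of SOX-free and 2.93% (2.56% to 3.35%) of SOX-holding regions, a difference of 5.16 points (4.59 to 5.72). The median gap was lower without SOX in the 4 width classes from 500 bp up and on all 21 chromosomes. Below 500 bp it was 13614.5 bp without and 11724 bp with SOX. The SOX6-only regions, with a median gap of 19563 bp, lay between the SOX-free regions and the SOX9-only regions at 26684 bp.

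H3K9me3 was met by 1609 SOX-free regions, or 9.16% (8.74% to 9.59%), which is near the 8.84% of all H3K27ac peaks and the 8.36% (7.73% to 9.03%) of SOX-holding regions. With both factors the share was 9.52% (8.58% to 10.55%), with SOX9 alone 7.57% and with SOX6 alone 7.05%. The comparisons that follow pool the SOX-holding regions. The difference from SOX-holding regions was 0.802 points (0.0125 to 1.56). It was 2.59 points (1.79 to 3.35) with the width limit at 2500 bp and 0.343 points (-0.449 to 1.10) without chromosomes 7, 9, 11 and 16. By chromosome the SOX-free share was lower on 11 and higher on 10. Peaks at or above the median score of each list gave 5.92% and 6.14%, in the opposite order. Within width classes the SOX-free share was higher by 3.61 points (2.07 to 4.82) at 500 to 800 bp, and by 1.81 points, with an interval from -0.287 to 3.99, at 2000 to 5000 bp. Without chromosomes 7, 9, 11 and 16 these were 2.93 points (1.36 to 4.07) and 0.704 points (-1.42 to 2.95), and the difference at 800 to 1200 bp went from 3.43 to 2.14 points (0.494 to 3.52). Below 500 bp, 87 of 502 SOX-free regions met H3K9me3, or 17.3% (14.3% to 20.9%), and 0 of 52 SOX-holding regions (Wilson interval up to 6.88%, or 5.77% by the limit of 3 counts). At 1200 to 2000 bp the SOX-free share was higher by 3.61 points (2.19 to 4.98). It was also higher in every score class. The differences ran from 2.50 points (0.358 to 4.76) at 1000 or more to 4.29 points (2.42 to 5.99) at 250 to 500. H3K9me3 was unevenly spread over chromosomes, from 2.33% of SOX-free regions on chromosome 20 to 20.6% on chromosome 16.

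Regions far from SOX peaks stood apart in this mark. Beyond 100 kb from a SOX peak, 260 of 1023 SOX-free regions met H3K9me3, or 25.4% (22.8% to 28.2%), compared with 8.15% (7.75% to 8.58%) of those up to 100 kb away. SOX-holding regions whose next SOX peak lay beyond 100 kb met it in 4.03% (2.73% to 5.93%) of 595 cases, a difference of 21.4 points (18.2 to 24.4). Over all H3K27ac peaks beyond 100 kb from a SOX peak, SOX-free regions included, 510 of 3263 met H3K9me3, or 15.6% (14.4% to 16.9%). Among other H3K27ac peaks beyond 100 kb, 7.77% (6.63% to 9.07%) of those with H3K4me3 met H3K9me3. Of those with neither form of H3K4 methylation, 27.5% (23.2% to 32.1%) did. The high share was therefore not confined to the SOX-free regions with H3K4me1.

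These far regions with H3K9me3 were unevenly spread. Chromosomes 1, 7, 9 and 16 held 174 of the 260, and without these chromosomes, chosen after their values were seen, the share was 12.6% (10.3% to 15.3%). Without the chromosomes of high input, 7, 9, 11 and 16, it was 16.2% (13.8% to 18.9%). Leaving out 1 chromosome at a time gave 22.0% to 27.1%. They fell in 84 windows of 1 Mb, and the 5 fullest windows held 112 of them. The fullest was on chromosome 16, with 40 between 21587997 and 21998353, and the next on chromosome 9, with 24 between 7328735 and 7982108. Input reads were high on both chromosomes, at 2.05 and 2.03 times the median chromosome, and their part in the result was not tested. The far regions with H3K9me3 had a median width of 687 bp and a median score of 103, against 868 bp and 129 for the far regions without it.

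**Figure D4:**
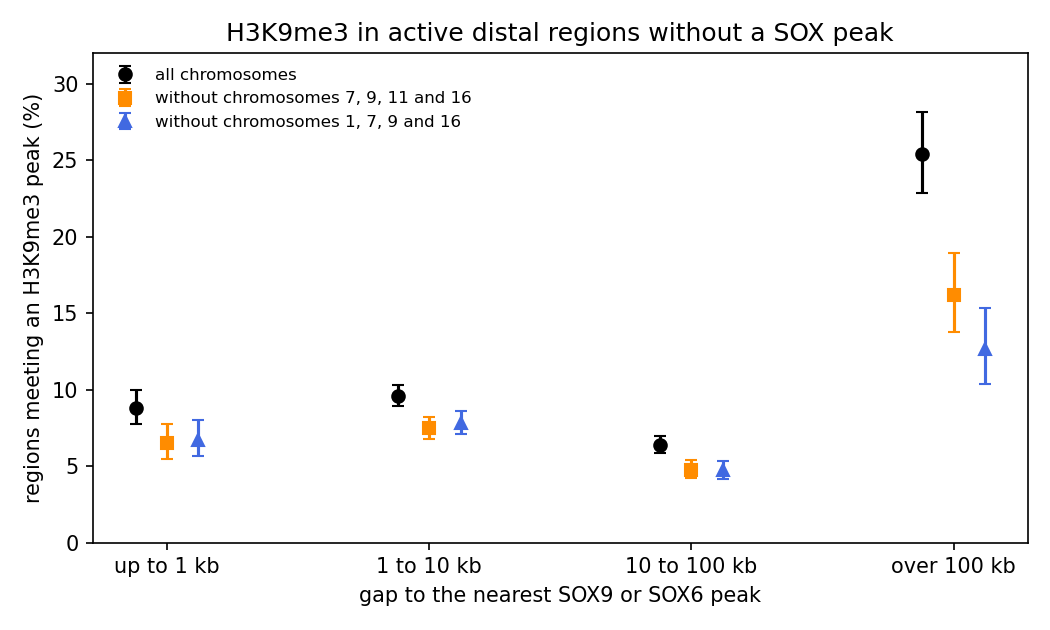
Percentage of SOX-free active distal regions that met an H3K9me3 peak (vertical axis) by the gap to the nearest SOX9 or SOX6 peak (horizontal axis), with Wilson 95% intervals, for all chromosomes and with the named chromosomes left out. The share beyond 100 kb is 25.4% over all chromosomes, 16.2% without chromosomes 7, 9, 11 and 16 and 12.6% without chromosomes 1, 7, 9 and 16, above the nearer classes in each set.

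Many SOX-free regions lay in groups. Joining SOX-free regions no more than 10 kb apart gave 10617 groups, of which 7218 were single regions and 58 held 10 or more. The groups of 10 or more held 805 regions, or 4.58%. The largest, on chromosome 9 from 17572967 to 17674435, held 34 SOX-free regions among 42 H3K27ac peaks in 101 kb, with 1 SOX9 and 4 SOX6 peaks in that span and no H3K4me3 peak. A group on chromosome 5 from 83177438 to 83272975 held 32 regions and 3 peaks of each factor. Within the first of these groups the gap to the nearest SOX peak ran from 352 to 21695 bp, and within the second from 793 to 16236 bp.

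The next group, on chromosome 9 from 43812872 to 43905416, held 29 regions with 7 SOX9 and 6 SOX6 peaks. A pair of groups on chromosome 7 held 26 regions each. In that from 26896096 to 26975990 all 26 met H3K9me3, and in that from 26758609 to 26814816 there were 14 that did, with 0 SOX9 peaks and 1 SOX6 peak over 56.2 kb. All 5 groups lay on chromosome 5 or on the high-input chromosomes 7 and 9, and the part of the input in their size was not tested. Of the acetylated stretches without any SOX peak, that with most SOX-free regions lay on chromosome 1 from 56909206 to 56953793, with 11 among 15 H3K27ac peaks in 44588 bp.

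The 10 SOX-free regions of highest score ranged from 3143 to 3233 in score and from 867 to 4155 bp in width. The first lay on chromosome 10 from 11867850 to 11871095, with a score of 3233, and stood 200.2 kb from the nearest SOX peak and 36704 bp from the nearest H3K27ac peak. It was covered in full by an H3K4me1 peak of 3486 bp. It is an example of a wide, isolated region of the highest score with no SOX peak around it. The second, on chromosome 13 from 31760522 to 31763322, stood 16232 bp from SOX and 316 bp from another H3K27ac peak. The next was on chromosome 7 from 117664844 to 117668998, at 3446 bp from SOX, and that of rank 4 on chromosome 11 from 33556297 to 33559956, at 677 bp.

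Rank 5 was a region of 1754 bp on chromosome 4 from 207391128 to 207392881, 47212 bp from SOX. Rank 6 was on chromosome 19 from 43439161 to 43441591, 35794 bp from SOX, and rank 7 on chromosome 18 from 70493244 to 70495552, 4886 bp from SOX. Rank 8, on chromosome 12 from 39843040 to 39844335, was 10411 bp from SOX, and only 54.3% of it lay under H3K4me1. The last of the 10 were on chromosome 1 from 142434860 to 142436403, 458 bp from SOX, and on chromosome 7 from 73142819 to 73143685, 1027 bp from SOX. Of these 10 regions, 5 lay within 10 kb of a SOX peak, and 1, on chromosome 4, met H3K9me3. Values above 3100 are not read as stronger acetylation than 3100, as the score has no stated scale.

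The 10 SOX-free regions farthest from a SOX peak had scores from 52.1 to 427, and none met H3K9me3. Of these scores, 6 lay below the SOX-free median of 138. The farthest lay on chromosome X from 143890823 to 143893117, 2431 kb from SOX, with a width of 2295 bp and a score of 392. It was followed by a region of 660.0 bp on chromosome 5 from 115859348 to 115860007, at 1748 kb. A region on chromosome 8 from 37929 to 39019 was at 1458 kb, and that on chromosome 14 from 52635768 to 52637066 at 1193 kb. The region on chromosome 3 from 82134429 to 82135013, at 1005 kb from SOX, was 340.0 bp from another H3K27ac peak and 540.0 bp from an H3K4me3 peak. Only these 5 lay more than 1000 kb away. The others were at 843 to 925 kb. Chromosome 11 held such a region from 25068775 to 25069443. That of chromosome 13 lay from 15708788 to 15709583. A further region of chromosome 3, from 135001627 to 135002500, scored 303. The remaining ones were on chromosome 5 from 95709843 to 95710424 and, with another H3K27ac peak 203 bp away, on chromosome 6 from 71966561 to 71967159. Of the 10 regions, 3 had another H3K27ac peak within 1 kb.

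The share of active distal regions without a SOX peak ranged from 60.7% (56.7% to 64.6%) on chromosome 17 to 77.3% (74.9% to 79.6%) on chromosome 16. Chromosomes 16, 9 and 7 had the 3 highest shares and also the 3 highest values of input reads per Mb, at 2.05, 2.03 and 1.91 times the median chromosome. Chromosome 11, with 1.63 times, had a low share of 65.6% (62.1% to 68.9%). Together these 4 chromosomes held 9.58 SOX-free regions per Mb against 5.41 elsewhere, and 3.23 SOX-holding regions per Mb against 2.27. The share without SOX was 74.8% (73.6% to 75.9%) on them and 70.4% (69.8% to 71.1%) elsewhere, while median widths of SOX-free regions were 856.5 and 863 bp. The part of the input in these densities was not tested. On every one of the 21 chromosomes the SOX-free median was lower in width, score and H3K4me1 width than that of SOX-holding regions.

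**Figure D5:**
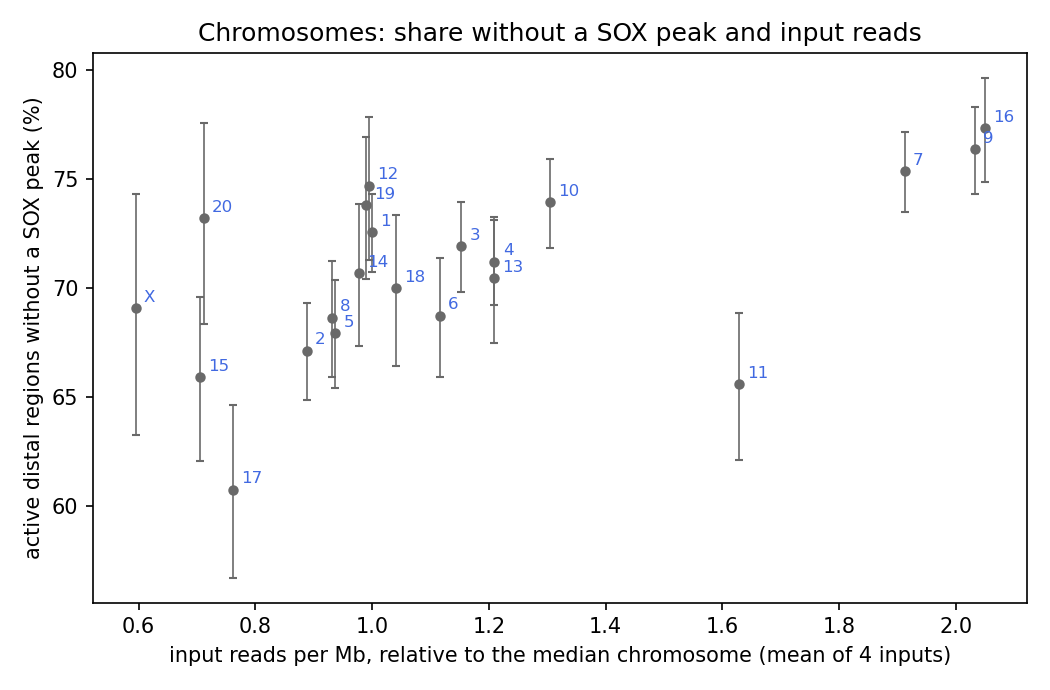
Percentage of active distal regions without a SOX peak on each chromosome (vertical axis, Wilson 95% intervals) against input reads without a mismatch per Mb, relative to the median chromosome and averaged over the 4 inputs (horizontal axis). Chromosomes 7, 9 and 16 lie at the upper right, at 75.4% to 77.3%, and chromosome 11 lies lower, at 65.6%.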

How the data were processed

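The 6 immunoprecipitated libraries were deposited as a separate peak list each, with MACS in the peak names. The score of each peak is the authors' deposited value, and its scale is not stated. The submitters' processing notes name CASAVA 1.8 and rn5; the caller's version and settings and the aligner: not given in the sources used here. The 4 inputs were deposited as raw read counts per chromosome, per the file headers.

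Peaks were read as intervals counted from 0. Overlap meant 1 bp or more, gaps were edge to edge, and chromosome spans ran to the last peak end. Shares carry Wilson 95% intervals, differences of shares Newcombe intervals and medians exact order-statistic intervals. The overlap and gap routines were tested on simulated lists. Python 3.11.15, pandas 2.3.3 and SciPy 1.17.1 were used.

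The regions, classes and comparisons were chosen with earlier results of these data known. Named are the 10 regions of highest score, the 10 farthest from SOX, the 3 closest, the 3 on each side of 5000 bp and the 5 largest groups. Others named were chosen after their values were seen. No gene or sequence is given, since a genome of rn5 was not used here. The alternatives were an overlap of 0.5 of the narrower interval, peaks at or above the median score, a limit of 2500 bp, no SOX within 1 kb, chromosomes 7, 9, 11 and 16 left out and, added after seeing the data, H3K27ac peaks within 1 kb joined first.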

Additional observations from a re-analysis of the deposited data

How the results depend on the processing

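With 1 library per antibody, no value here carries the spread between libraries, and the lists hold called peaks only. No paired analysis was possible because each antibody has 1 library. The 9 results were recomputed under 6 settings, 5 planned and 1 added after seeing the data. The SOX-free and SOX-holding classes kept their order in width, score, H3K4me1 width and gap to H3K4me3 under all 6. Other changes of a value follow, for SOX-free regions unless stated.

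With an overlap of at least 0.5 of the narrower interval, the share without SOX was 72.2%, the H3K9me3 share 8.18%, the share with SOX in the same H3K4me1 peak 7.48%, the median score 140.8 and the median gap to SOX 7676.5 bp. With lists cut to peaks at or above their own median score, the share without SOX was 57.8% and the share with SOX in the same H3K4me1 peak 1.81%. There the median width was 1831 bp, the score 844, the gap to H3K27ac 4896 bp, the gap to SOX 17927 bp, the H3K4me1 width 1827 bp and the gap to H3K4me3 36026 bp. That setting also turned the order of H3K9me3, to 5.92% against 6.14% in SOX-holding regions, and the cause was not tested.

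With the limit at 2500 bp, the share without SOX was 76.2%, the median width 835 bp, the score 129 and the H3K4me1 width 1279 bp. H3K9me3 was met by 8.77% of SOX-free and 6.18% of SOX-holding regions there. With no SOX peak within 1 kb, the share was 61.4%, the share with SOX in the same H3K4me1 peak 3.25%, the score 133, the H3K4me1 width 1344 bp and the gap to H3K4me3 16081 bp. The order of the gap to SOX (10869 bp against 6960.0 bp) turned there by construction, as regions beside SOX peaks change class. The order of the gap to H3K27ac turned as well (1251 bp against 524 bp). That setting did not use this gap directly. The SOX sites within 1 kb of a SOX-free region lay in H3K27ac without H3K4me3 in 63.8% of cases, so the gaps are not independent. The regions up to 1 kb from a SOX peak, which changed class, had a median gap to H3K27ac of 201 bp. Without chromosomes 7, 9, 11 and 16 the share without SOX was 70.4% and the H3K9me3 share 6.78%, against 6.44% in SOX-holding regions. The interval of this difference also held 0 with the overlap of 0.5 (0.599 points, -0.171 to 1.34) and with joined peaks (0.501 points, -0.444 to 1.42).

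With H3K27ac peaks within 1 kb joined first, the share without SOX was 64.6% and the share with SOX in the same H3K4me1 peak 1.85%. The median width was 998 bp, the gap to H3K27ac 6273 bp, the gap to SOX 15524 bp and the gap to H3K4me3 21009 bp. The remaining 21 recomputed values lay within the counting interval of the reported value.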
